A study of Mus musculus with 16 samples.

Results

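The genes described here are 37 mouse genes that copy DNA and repair it during copying, out of 25719 genes listed in each deposited file. They were taken by symbol from a list covering origin licensing, the replication fork, nucleotide supply, and Fanconi and homologous repair, and each symbol matched 1 Ensembl identifier. All 37 had enough counts to be tested, so none was lost to the filter on low counts. RNA was sequenced from tail tendon fascicles, the thin collagen strands that run along the tail, in 8 libraries from wild type mice and 8 from mice of the genotype ScxCre;Vhlf/f, called the knockout below. In that genotype both Vhl copies carry loxP sites, and Cre recombinase is made under the control of Scx, a gene of the tendon lineage, so cells outside that lineage keep Vhl. The labels give the material as all cells of the tissue and state no age, sex or other treatment for either group. They do not say that each library came from its own mouse, and if they did not, the p-values measure only the spread between these libraries.

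Before DNA is copied, the origin recognition complex, Cdc6 and Cdt1 load the ring of Mcm2 to Mcm7 onto chromatin, a step called licensing. Cdc45 and the GINS complex then turn that ring into a moving helicase, DNA polymerase alpha with primase lays down starter strands, replication factor C loads the sliding clamp Pcna, and polymerases delta and epsilon extend the new strands. Where a cross-link joins the strands, the Fanconi anaemia core complex attaches ubiquitin to the Fancd2 and Fanci pair, and Brca1, Brca2 and Bard1 act in repair by homologous recombination. Most of these genes are transcribed in proliferating cells, many through E2F factors. Tendon cells in the adult divide rarely. The Vhl protein marks HIF alpha subunits for degradation when oxygen is present.

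Because many replication genes are known E2F targets, the promoters of the members were searched for 2 E2F-type motifs, TTTCCCGC and TTTGGCGC, on both strands. RefSeq promoters on build GRCm38.p6, each covering 250 bases before and 50 after a start, were available for 29 members with 33 starts. Fancd2, Gins1, Gins2, Gins4, Mcm4, Pole, Prim2 and Rfc2 were not among them. At least 1 of the motifs was found in 12 of the 33 promoters (36.4%), against 1.56% of all 32851 promoters of the same length. TTTCCCGC was found in 8 (Bard1, Brca2, Cdc6, Gins3, Mcm3, Mcm7, Pold1 and Rfc3; 24.2%, against 1.07%). TTTGGCGC was found in 5 (Cdt1, Mcm3, Mcm5, Mcm6 and Pola1; 15.2%, against 0.514%). Of the 12 members with a match, 10 were higher in the knockout by the test given below, with a median log2 fold change of 0.54. Of the 17 members in the table without one, 14 were higher, with a median of 0.51. Over all tested genes, 25.6% were higher, and the median was 0.02.

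The 180 bases before the start are shown for the 6 members with a single start in the table and a whole match in that window, from the largest to the smallest log2 fold change, so that matches in genes that rose stand beside matches in genes that did not pass the test. The match is in capitals, and it reads as the reverse complement in all of them but Mcm6. The stretches lie at chr8:75109329-75109508 on the plus strand (Mcm5), chr11:98907971-98908150 plus (Cdc6), chr1:128359706-128359885 minus (Mcm6), chr8:95633379-95633558 plus (Gins3), chr5:150522441-150522620 plus (Brca2) and chrX:93632156-93632335 minus (Pola1). The matches begin 149 bases before the start in Mcm5, 138 in Cdc6, 110 and 47 in Mcm6, 41 in Gins3, 168 in Brca2 and 138 in Pola1.
Mcm5: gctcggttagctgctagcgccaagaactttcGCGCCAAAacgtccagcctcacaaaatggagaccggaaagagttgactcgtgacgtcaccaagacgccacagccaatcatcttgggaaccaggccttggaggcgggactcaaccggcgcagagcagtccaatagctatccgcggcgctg
Cdc6: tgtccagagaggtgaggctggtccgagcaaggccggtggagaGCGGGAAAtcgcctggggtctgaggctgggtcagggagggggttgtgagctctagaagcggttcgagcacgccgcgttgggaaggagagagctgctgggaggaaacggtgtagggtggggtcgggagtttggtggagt
Mcm6: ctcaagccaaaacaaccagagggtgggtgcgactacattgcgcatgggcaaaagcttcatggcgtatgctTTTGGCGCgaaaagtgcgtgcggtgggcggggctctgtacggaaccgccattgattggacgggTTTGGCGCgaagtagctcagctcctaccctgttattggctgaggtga
Gins3: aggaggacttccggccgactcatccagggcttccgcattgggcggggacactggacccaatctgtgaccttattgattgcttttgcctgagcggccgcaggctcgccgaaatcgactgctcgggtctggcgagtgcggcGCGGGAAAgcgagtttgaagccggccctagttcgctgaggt
Brca2: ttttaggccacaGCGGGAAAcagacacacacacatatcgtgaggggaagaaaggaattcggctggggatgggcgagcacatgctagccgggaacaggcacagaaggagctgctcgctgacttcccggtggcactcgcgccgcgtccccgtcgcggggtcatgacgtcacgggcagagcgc
Pola1: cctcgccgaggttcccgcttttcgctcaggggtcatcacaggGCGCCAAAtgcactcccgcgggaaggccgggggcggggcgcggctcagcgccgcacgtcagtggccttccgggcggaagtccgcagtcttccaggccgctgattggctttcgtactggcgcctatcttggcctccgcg
Mcm5, Cdc6, Mcm6 and Gins3 rose, while Brca2 and Pola1 did not pass the test.

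Shorter motifs are far more common in all promoters, so a ratio as large as that of the E2F-type motifs was not possible. CCAAT was found in 18 of the 33 promoters (54.5%, against 37.4%) and TTTGAA, the cell cycle homology element, in 5 (15.2%, against 17.9%). The hypoxia response core was searched as ACGTG, found in 8 promoters (24.2%, against 19.6%), and as GCGTG, found in 16 (48.5%, against 32.4%). Either was found in 19 promoters (57.6%, against 43.8%). Only ACGTG and GCGTG shared bases with each other in a member's promoter, in Rfc1. A match describes letters and is not a binding site.

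Library totals were 10488355 to 18753254 counts for the knockout and 10792900 to 16379401 for the wild type, and 3 counts were worth 0.145 to 0.336 CPM, the count scaled to a common library size. Values below are CPM with library sizes scaled by the trimmed mean of M values (TMM), and a gene is called changed at an adjusted p under 0.05 in edgeR's quasi-likelihood test over 14803 genes. Vhl itself was at 7.50, 9.51 and 10.9 CPM (lowest, median and highest) in the knockout, against 14.1, 20.5 and 25.8 in the wild type, without overlap, and its log2 fold change was -1.13 with an SE of 0.113 and an adjusted p of 9.64e-08. The defining tendon markers Scx, Tnmd and Col1a1 were present, and the 10 tenocyte markers together made up 77500 to 181000 CPM in knockout and 131000 to 380000 in wild type libraries. Y-linked transcripts were present in 2 libraries of each group.

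Of the 37 members, 29 were higher in the knockout (78.4%), 0 were lower and 8 did not pass the test. Over all tested genes, 48.3% changed, 25.6% higher and 22.7% lower. The members' median log2 fold change was 0.51, with a range of -0.17 to 1.75, while the median over all tested genes was 0.02. In 8 members (21.6%) the knockout mean was higher by at least 2-fold: Mcm2, Mcm5, Cdc6, Mcm10, Gins1, Prim2, Fancd2 and Brca1. That size of increase was reached by 8.3% of all tested genes. A further 9 members rose by 1.5 to 2-fold and 12 by less than 1.5-fold. In 13 members (35.1%) every knockout library was above every wild type library, against 10.8% of all genes, and in 0 members was every knockout library below, against 8.61%. The lists were drawn up with earlier results of these libraries known, so these counts describe the members and are not independent evidence of a direction.

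**Figure D1:**
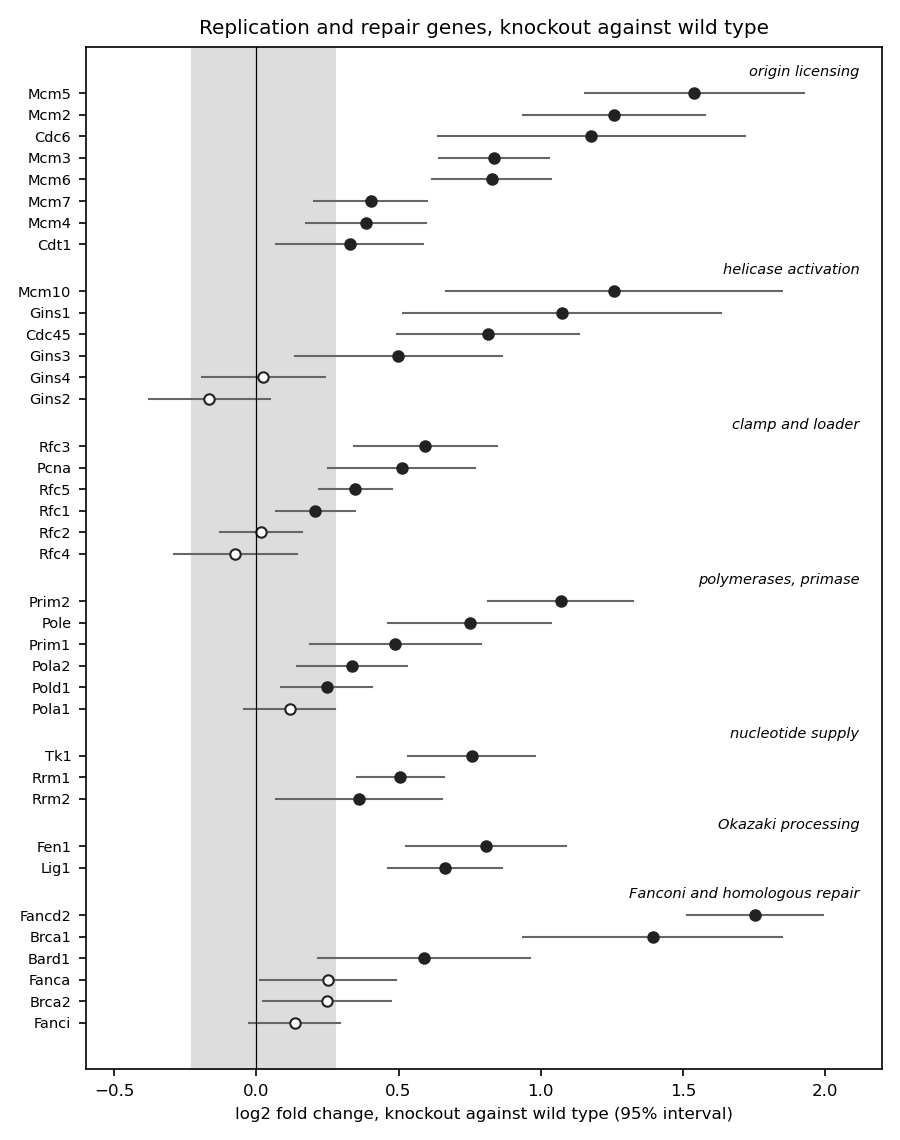
Log2 fold change of each of the 37 members, knockout against wild type, with its 95% interval, grouped by role and ordered within each role. Filled points passed an adjusted p under 0.05, open points did not, and the grey band runs from the lower to the upper quartile of all tested genes (-0.23 to 0.28); 29 points are filled and all of those lie right of 0.

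Markers of some other cell types differed between the groups in the same libraries. Over all tested genes, 25.6% were higher and 22.7% lower. The summed levels of the mural, leukocyte, muscle, Schwann and tenocyte lists overlapped between the groups. Of 9 tested endothelial markers of 12, 7 were higher in the knockout, and their summed level was 64.4 to 621 CPM against 42.4 to 62.5 in the wild type. All 6 tested erythroid markers of 10 were higher (120 to 610 against 36.7 to 73.3 CPM), as were 6 of 8 tested mural markers, with 1 lower (281 to 2020 against 213 to 393), and 4 of 7 tested leukocyte markers (938 to 1250 against 776 to 1080). Muscle markers, with 1 of 12 higher, covered 150 to 8540 CPM in knockout and 52.9 to 4280 in wild type libraries. Other lists held genes that fell: 6 of 10 tenocyte markers fell and 1 rose, 2 of 7 tested chondrocyte markers fell and 3 rose, with sums of 154 to 498 against 831 to 1810 CPM, and 2 of 3 tested keratinocyte markers fell (21 to 26.4 against 27.3 to 54.6 CPM). Of 6 tested Schwann cell markers, 2 rose (291 to 543 against 415 to 479 CPM). Krt5, Krt14, Krt1 and Krt15 of the keratinocyte list, and Cd3e and Ly6g of the leukocyte list, were at or under 3 counts in every library. With the mean marker level of a cell type as a covariate, the members called higher numbered 28 for muscle, 17 for endothelial, 13 for leukocyte and 6 for erythroid markers, while the share of all genes called higher became 23.7%, 14.4%, 15.8% and 11.4%. The covariates move with genotype. How much of the members' rise belongs to these cell types was not tested, and more cells of a type cannot be told apart from more RNA per cell in whole tissue. The 6 members that passed with the erythroid covariate were Fancd2, Lig1, Mcm2, Mcm5, Mcm6 and Tk1, and the same 6 passed under each of the 30 alternatives run.

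All 8 licensing members rose, against 25.6% of all tested genes, with a median log2 fold change of 0.83. Mcm5, a subunit of the helicase ring, had 6.23, 9.03 and 12.7 CPM in the knockout, against 2.31, 2.93 and 4.93 in the wild type. Its groups did not overlap, and its log2 fold change was 1.54 (SE 0.184, adjusted p 9.43e-07), the largest of the role. Its ring partner Mcm2 had 6.47, 8.48 and 11.8 CPM against 2.28, 3.68 and 4.99, also without overlap (log2 fold change 1.26, SE 0.154, adjusted p 1.27e-06). Mcm3 and Mcm6 rose by 0.84 and 0.83 on the log2 scale, again with every knockout library above every wild type library. Mcm6 was at 22.9, 27.8 and 34.0 CPM against 13.0, 14.8 and 20.9. Mcm4 and Mcm7 rose by 0.39 and 0.40, and their groups overlapped. The 6 subunits of 1 ring thus differed in the size of their rise, from 1.31-fold for Mcm4 to 2.91-fold for Mcm5.

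Per kilobase of exon, the wild type means of the ring subunits spread from 0.535 CPM for Mcm2 and 0.814 for Mcm5 through 2.22 for Mcm3 and 3.33 for Mcm6 to 4.06 for Mcm4 and 4.13 for Mcm7. In the knockout they were 1.28, 2.37, 3.96, 5.90, 5.30 and 5.45 CPM per kilobase in the same order. Mcm2 and Mcm5, with the lowest wild type levels, had the largest fold changes. Lengths are those of all annotated exons merged, which can exceed the transcript present, so levels of different genes compare only roughly. Exons of Mcm7 overlap those of Cops6 and Ap4m1 on the opposite strand, so its counts are uncertain.

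The loading factors Cdc6 and Cdt1 rose by different amounts. Cdc6, the ATPase that brings the ring to the origin, was a low gene at 1.26, 2.10 and 2.91 CPM in the knockout, against 0.279, 0.939 and 1.53 in the wild type. Its log2 fold change was 1.18 (SE 0.258, adjusted p 8.35e-04), on 4 to 59 counts a library. Cdt1, which loads the ring with Cdc6 and is held back by geminin (Gmnn), was at 3.91, 4.39 and 5.33 CPM against 2.73, 3.60 and 4.92. Those groups overlapped, and the change of 0.33 on the log2 scale (SE 0.124, adjusted p 0.0348) was the smallest of the role. Cdt1 lost its call without any 1 of knockout 1, 3, 5 or 8 or wild type 1, 3 or 4, with adjusted p up to 0.0785.

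Of the 6 members that activate the helicase, 4 rose (against 25.6% of all tested genes), and Gins2 and Gins4 did not pass the test. Mcm10, a factor needed for origin firing, was at 1.13, 1.91 and 3.85 CPM in the knockout, against 0.312, 0.986 and 1.36 in the wild type. Of 8 knockout libraries, 7 were above every wild type library, and its log2 fold change was 1.26 (SE 0.283, adjusted p 0.00106). Cdc45, the partner of the ring in the moving helicase, rose by 0.81 without overlap between the groups. Its exons overlap those of Ufd1 for 209 bases on the opposite strand. Gins1 and Gins3, subunits of the GINS complex, rose by 1.08 and 0.50, Gins1 on only 211 counts over all libraries. Gins3 lost its call without knockout 6 (adjusted p 0.0519).

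The other GINS subunits did not follow. Gins2 was at 10.2, 12.7 and 16.9 CPM in the knockout, against 11.1, 14.2 and 17.1 in the wild type, with a log2 fold change of -0.17 (95% interval -0.38 to 0.05, adjusted p 0.188). Only 1 of 8 knockout libraries was above the wild type median. Gins4 was at 10.5, 14.1 and 18.3 CPM against 12.2, 13.95 and 16.1, with a log2 fold change of 0.02 (interval -0.19 to 0.24, adjusted p 0.864). Per kilobase, the wild type means were 10.5 CPM for Gins4, 3.50 for Gins2, 0.616 for Gins3 and 0.402 for Gins1, although their proteins form 1 complex. The limit on merged exon length given for the ring applies here too. Gins2 lies over exons of Gse1 for 2758 bases on the opposite strand, and its level and change are uncertain for that reason.

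Pcna, the sliding clamp, was at 24.3, 35.1 and 50.9 CPM in the knockout, against 20.8, 26.1 and 31.8 in the wild type. The groups overlapped, with 7 of 8 knockout libraries above the wild type median, and the log2 fold change was 0.51 (SE 0.123, adjusted p 0.00194). The clamp loader, replication factor C, divided into subunits that rose and subunits that did not. Rfc3 was at 6.14, 7.33 and 8.54 CPM against 3.55, 4.56 and 6.75, a rise of 0.59 on the log2 scale (SE 0.120, adjusted p 3.96e-04). Rfc5 rose by 0.35 without overlap, and Rfc1, the large subunit, rose by 0.21, the smallest change among the members that passed.

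Rfc2 was at 19.7, 20.2 and 23.1 CPM in the knockout, against 17.2, 20.7 and 22.8 in the wild type, with a log2 fold change of 0.02 and an interval of -0.13 to 0.16. Rfc4 was at 4.58, 5.32 and 7.01 CPM against 4.97, 5.44 and 6.61, with a log2 fold change of -0.07 and an interval of -0.29 to 0.14. For both genes the groups covered nearly the same range. Exons of Rfc2, Rfc4 and Rfc5 overlap those of Lat2, Eif4a2 and Wsb2, so the values of these 3 subunits are uncertain.

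Of the polymerase and primase members, 5 of 6 rose, against 25.6% of all tested genes. Prim2, the large primase subunit, had 14.4, 16.7 and 27.5 CPM in the knockout, against 7.40, 8.66 and 10.1 in the wild type. Every knockout library was above every wild type library (log2 fold change 1.07, SE 0.121, adjusted p 4.81e-07). Prim1, the catalytic primase subunit, rose by 0.49, and Pola2, the second subunit of polymerase alpha, by 0.34, both with overlap. Pola1, the catalytic subunit of that polymerase, was at 16.9, 18.6 and 23.7 CPM against 16.01, 17.2 and 20.8, and its log2 fold change of 0.12 did not pass the test (interval -0.04 to 0.28, adjusted p 0.215). Pole, the catalytic subunit of the leading strand polymerase, was at 6.48, 9.10 and 13.3 CPM against 4.61, 5.76 and 6.81 (log2 fold change 0.75, SE 0.137, adjusted p 1.40e-04). Pold1, its counterpart in polymerase delta, rose by 0.25.

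Nucleotide supply was represented by 3 members, and all of them rose, against 25.6% of all tested genes. Tk1, the thymidine kinase of cycling cells, was at 11.2, 14.9 and 17.1 CPM in the knockout, against 6.93, 8.76 and 10.4 in the wild type, without overlap (log2 fold change 0.76, SE 0.107, adjusted p 7.73e-06). Rrm1, the large subunit of ribonucleotide reductase, was at 26.4, 32.0 and 38.4 CPM against 20.7, 22.8 and 25.5, also without overlap (log2 fold change 0.51, SE 0.0726, adjusted p 9.52e-06). Rrm2, the small subunit whose protein is made in S phase, was at 7.21, 7.92 and 12.1 CPM against 4.75, 6.82 and 8.53. Its groups overlapped, and its rise of 0.36 on the log2 scale (SE 0.140, adjusted p 0.0401) lost its call without any 1 of knockout 4 or 5 or wild type 1, 2, 3, 4 or 7. With the leukocyte and erythroid covariates the Rrm2 estimates were -0.15 and -0.27, neither past the test.

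Both Okazaki fragment genes rose without overlap, as did 10.8% of all tested genes. Fen1, the nuclease that trims the flap between fragments, was at 5.54, 7.18 and 10.9 CPM in the knockout, against 3.20, 4.13 and 4.93 in wild type libraries (log2 fold change 0.81, SE 0.134, adjusted p 5.12e-05). Lig1, the ligase that seals them, was at 10.3, 11.5 and 15.5 CPM against 6.42, 7.38 and 8.74 (log2 fold change 0.66, SE 0.0956, adjusted p 1.01e-05). Exons of Fen1, Lig1 and Tk1 overlap those of Tmem258, Zswim9 and Afmid on the opposite strand.

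**Figure D2:**
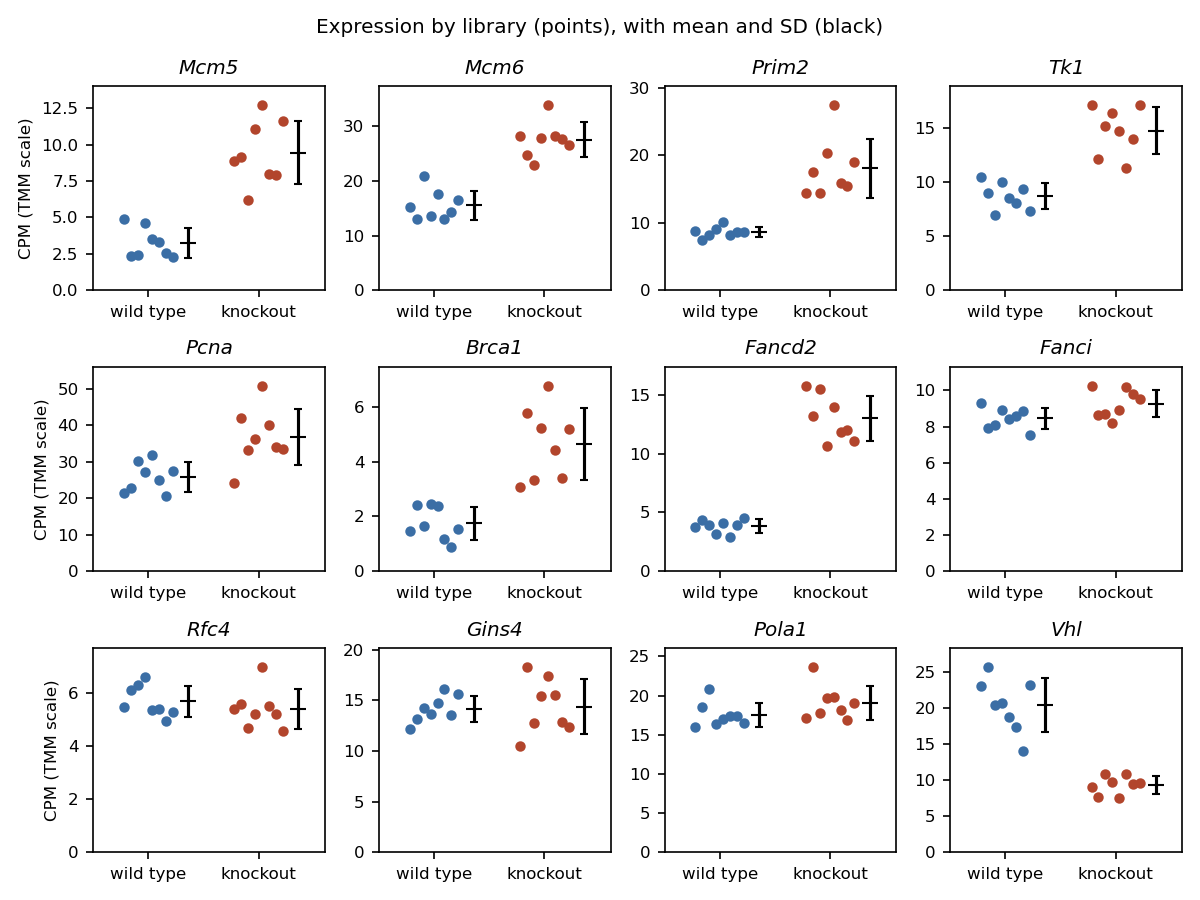
CPM on the TMM scale in each of the 16 libraries (points; blue wild type, red knockout) for 11 members and Vhl, with the mean and SD of each group in black and each vertical axis starting at 0. The knockout points of Mcm5, Mcm6, Prim2, Tk1, Brca1 and Fancd2 lie above all wild type points, those of Fanci, Rfc4, Gins4 and Pola1 overlap the wild type points, and Vhl is lower in every knockout library.

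In the Fanconi and homologous repair group, 3 of 6 members rose (50%), against 25.6% of all tested genes, a share that rests on few genes. Fancd2 had the largest change of all 37 members, at 10.7, 12.6 and 15.8 CPM in the knockout, against 2.95, 3.94 and 4.53 in the wild type. Every knockout library was above every wild type library, and the mean was 3.37-fold higher (log2 fold change 1.75, SE 0.114, adjusted p 1.86e-10). Fanci, its partner in the ubiquitinated pair, was at 8.18, 9.19 and 10.3 CPM against 7.52, 8.51 and 9.29. That log2 fold change of 0.13 (interval -0.03 to 0.29, adjusted p 0.156) did not pass the test. Fanca, of the core complex that attaches the ubiquitin, was at 7.06, 8.05 and 10.3 CPM against 5.71, 6.98 and 8.28 (log2 fold change 0.25, adjusted p 0.0764). Exons of Fanci overlap those of Polg for 921 bases, and exons of Fanca overlap those of Zfp276 for 920 bases, on the opposite strand.

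Brca1, the ubiquitin ligase of homologous repair, was at 3.07, 4.79 and 6.76 CPM in the knockout, against 0.894, 1.59 and 2.44 in the wild type. The groups did not overlap (log2 fold change 1.39, SE 0.218, adjusted p 2.61e-05). Its obligate partner Bard1 rose by 0.59 (SE 0.178, adjusted p 0.0103) with overlap. Brca2, a mediator of homologous recombination, was at 11.5, 14.2 and 17.9 CPM against 9.74, 12.0 and 15.1. Its log2 fold change of 0.25 missed the threshold (adjusted p 0.0649) and passed it without any 1 of knockout 3 or 6 or wild type 2 or 7.

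Fancd2 lies close to Vhl, the gene deleted in the knockout, on chromosome 6, with Brk1 and Fancd2os between them in GENCODE M21 order. Of the 8 listed genes nearest to Vhl on each side, 13 of 16 were tested, 5 were higher and 1 was lower. Changes in either direction were 46.2% of those tested, against 48.3% of all tested genes. Over all tested genes, 25.6% were higher and 22.7% lower. Fancd2 itself is among the 5 higher neighbours. The direct neighbour Brk1 had a log2 fold change of -0.14 (adjusted p 0.146), and Emc3, on the far side of Fancd2, also had -0.14 (adjusted p 0.235). Prrt3, beyond Emc3, rose by 1.23, and Il17re, 3 genes further, fell by 1.13. On the other side of Vhl, Irak2 rose by 0.74, Gm43963 by 0.54 and Tatdn2 by 0.28. The genes that changed were thus interleaved with genes that did not pass the test, and Fancd2 had the largest rise among them. Fancd2os, which overlaps Fancd2 exons for 257 bases on the opposite strand, was too low to test, at 0.401 to 1.23 CPM in knockout and 0 to 0.298 in wild type libraries. Between the groups, Fancd2 rose together with a lower Vhl level and with higher proliferation markers, given further down. The part of either in the Fancd2 rise was not tested.

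**Figure D3:**
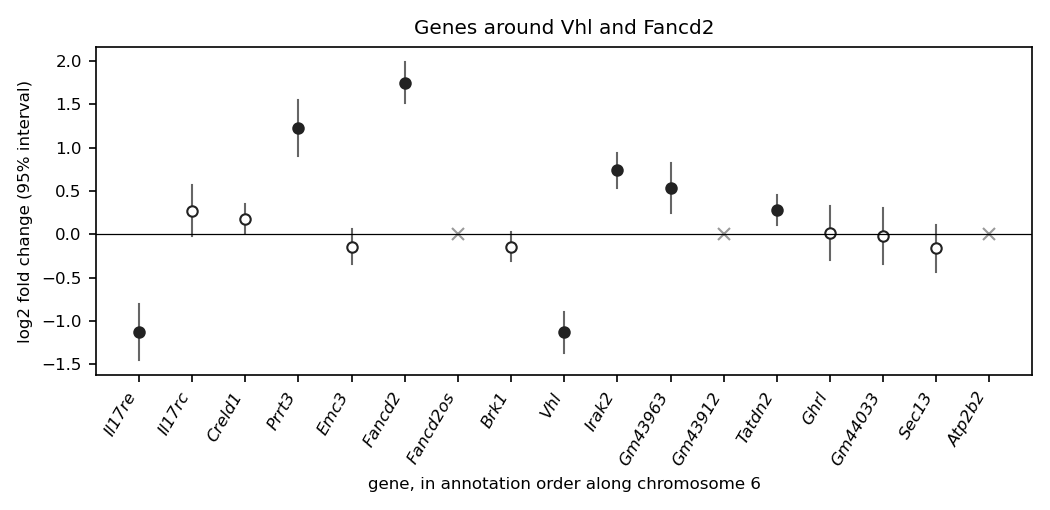
Log2 fold change with its 95% interval for Vhl and the 8 listed genes on each side, in annotation order along chromosome 6 with equal spacing. Filled points passed the test, open points did not, and grey crosses at 0 mark the 3 genes that were not tested; Fancd2 (1.75) stands between Emc3 and the untested Fancd2os.

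Whether partner genes moved apart was tested with the log2 ratio of their CPM, with 0.5 added to each, within each library, which does not depend on library scaling except through that addition. The test was a two-sided exact permutation test over all 12870 assignments of the 16 libraries, whose smallest possible p is 0.000155, with p adjusted over the 8 ratios. The ratio of Fancd2 to Fanci had a mean log2 of 0.46 ± 0.22 (SD, n = 8) in the knockout, against -1.05 ± 0.26 in the wild type. That difference of 1.51 had an exact p of 0.000155 and an adjusted p of 0.00124, and the groups did not overlap. Exons of Fancd2, Fanci and Rfc4 overlap those of other genes, so the ratios that hold them are uncertain. The ratio of Brca1 to Bard1 was higher by 0.71 (adjusted exact p 0.00671), above the wild type median in 7 of 8 knockout libraries. Prim1 to Prim2 was lower by a difference of -0.57 (adjusted exact p 0.00311), below the wild type median in 8 of 8. Pold1 to Pole differed by -0.43 (adjusted exact p 0.0085; 7 of 8 lower), and Rfc1 to Rfc4 by 0.27 (adjusted exact p 0.00671; 8 of 8 higher).

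The ratio of Cdt1 to its inhibitor Gmnn differed by -0.80 (adjusted exact p 0.00414; lower in 8 of 8 knockout libraries), as Gmnn rose more than Cdt1. Gmnn is low, so this value varied with the number added, from -0.35 with 2 CPM to -1.18 with 0.1 CPM. Rrm2 to Rrm1 differed by -0.16, which did not pass the test (adjusted exact p 0.244), but passed without wild type 3 (-0.26, adjusted exact p 0.0417). Rrm2 to its p53-responsive relative Rrm2b was higher by 0.42 (adjusted exact p 0.0243; 7 of 8 higher). That call was lost without knockout 1, 4 or 5, with adjusted exact p of 0.0501 to 0.051. Without the 4 libraries of high Scx and Bop1 (knockout 5, 6 and 8, wild type 8), Brca1 to Bard1, Pold1 to Pole and Rrm2 to Rrm2b each reached an adjusted exact p of 0.0548. The groups are then smaller and unequal, so a lost call cannot be told apart from lost power.

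**Figure D4:**
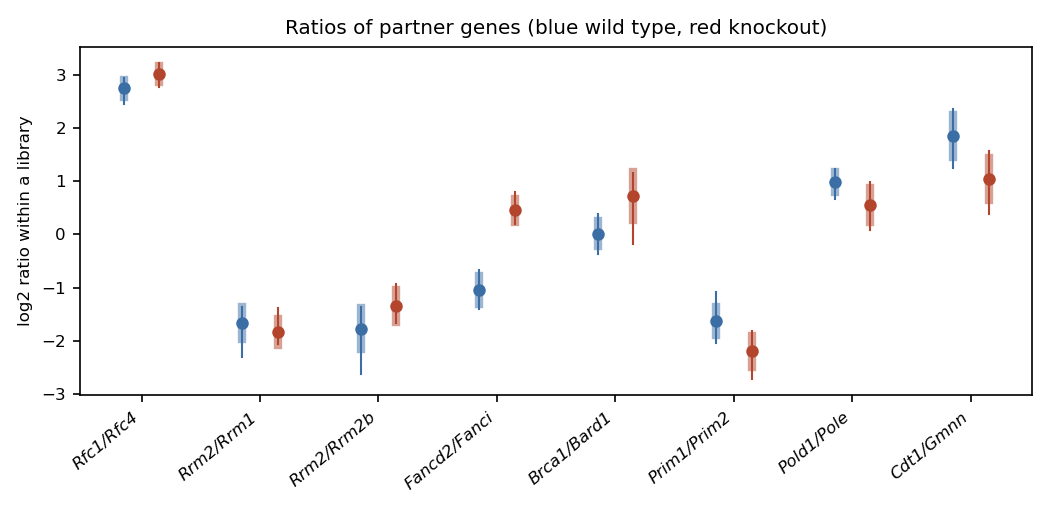
Log2 ratio of 8 pairs of partner genes within a library, from CPM with 0.5 added and not scaled by gene length (blue wild type, red knockout). Points are group means, thick bars are 1 SD to each side and thin lines run from the lowest to the highest of 8 libraries; the Fancd2 to Fanci ratio is the pair whose groups do not overlap.

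The rise was not equal among the knockout libraries. Knockout 5 held the highest knockout value for 16 of the 37 members, among them Mcm2, Mcm3, Mcm5, Mcm6, Pcna, Prim2 and Brca1. Knockout 1 held the highest for 7, among them Fancd2, Fanci, Brca2 and Bard1, and the lowest for 12, among them Mcm2, Pcna and Brca1. The mean log2 CPM over the members was 3.16 to 3.56 in knockout and 2.67 to 2.84 in wild type libraries. Knockout 5 had the highest mean of the members and the highest leukocyte sum (1250 CPM), but the lowest muscle sum (150 CPM), its endothelial sum was 103 CPM, and its erythroid sum of 598 CPM was near the top of the knockout range. Knockout 7, with the highest endothelial (621 CPM), mural and muscle sums and the lowest erythroid (120 CPM) and leukocyte (938 CPM) sums, held the highest value for 2 members. Without knockout 5, 27 members were higher, and leaving out any other single library gave 27 to 29. Without the 4 libraries of high Scx and Bop1, in smaller and unequal groups, 23 members were higher, against 21.1% of all genes. Gins2 was then lower (log2 fold change -0.31, adjusted p 0.0193).

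**Figure D5:**
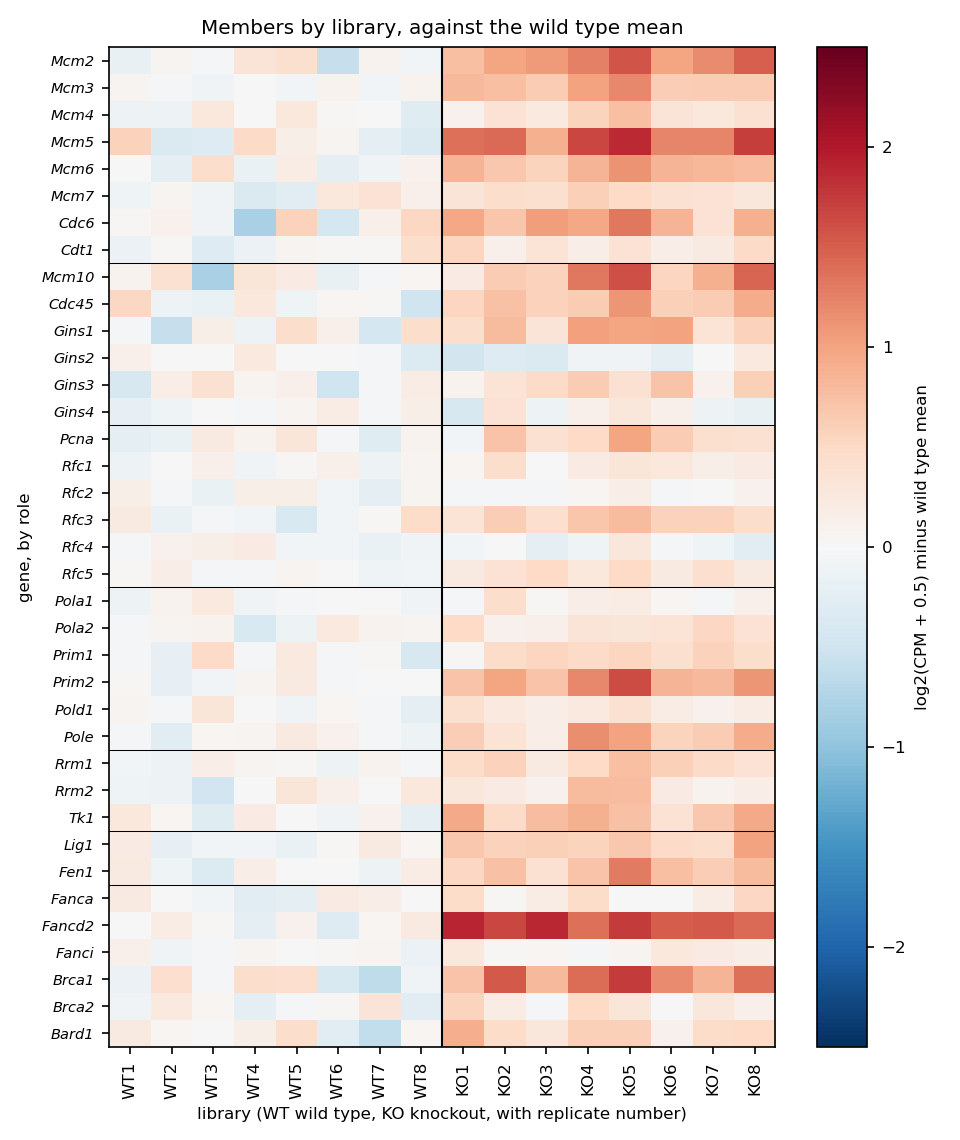
Log2 of CPM plus 0.5 for each member in each library, minus the mean of the 8 wild type libraries for that gene, ordered by role and separated by lines. Red is higher and blue is lower than the wild type mean; the Fancd2 and Mcm5 rows are red in all 8 knockout libraries, while the Rfc2, Rfc4 and Fanci rows are pale throughout and Gins2 is pale or blue in most knockout libraries.

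Of 84 further genes of the same pathways, 38 were higher (45.2%) and 5 lower, with a median log2 fold change of 0.19, against 25.6% higher and 22.7% lower over all genes. Among 14 origin control genes, 6 rose and 0 fell, led by Ticrr (1.69), a firing factor, Gmnn (1.59) and Cdc7 (1.05), a firing kinase. None of Orc1 to Orc6, the origin recognition complex, passed. Among 22 other fork genes, 11 rose, led by the checkpoint mediator Clspn (2.22), the fork protection factor Timeless (1.66) and the histone chaperone subunit Chaf1b (1.40). Rpa1, which coats single strands, fell by 0.32. Among 10 nucleotide genes, Dck (1.66), a deoxycytidine kinase, and Samhd1 (0.24), a dNTP hydrolase, rose, and Tk2, the mitochondrial thymidine kinase, fell by 0.37.

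Among 20 other Fanconi genes, 9 rose and 2 fell, where 25.6% of all tested genes rose and 22.7% fell. Ube2t, the enzyme that conjugates ubiquitin to Fancd2 and Fanci, was at 1.99, 2.63 and 3.95 CPM in the knockout, against 0.0959, 0.349 and 0.529 in wild type libraries (log2 fold change 2.93, SE 0.251, adjusted p 1.01e-08). Those wild type values of Ube2t lie near the floor, so the size of its rise is imprecise. The helicase Brip1 rose by 1.56. Faap20, of the core complex, fell by 0.24, and Usp1, which removes that ubiquitin, fell by 0.20. Their estimates were 0.07 and 0.09 with total counts as the scale. Among 18 other homologous repair genes, 10 rose, among them the nuclease Exo1 (1.95) and the end resection factor Rbbp8 (1.07), and 1 fell. Exo1 was near the floor in the wild type, at 0, 0.335 and 0.755 CPM. Rad50 fell by 0.23, with an estimate of 0.07 on total counts.

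Genes that govern the entry into S phase and those of mitosis were read from lists of their own. Of 18 regulators of the G1 to S transition, 13 rose (72.2%) and 1 fell. Over all tested genes, 25.6% rose and 22.7% fell. E2f1, an activator, was at 32.8, 46.1 and 65.6 CPM in the knockout, against 12.1, 14.8 and 17.7 in wild type libraries (log2 fold change 1.63, SE 0.129, adjusted p 4.01e-09), and the repressors E2f8 and E2f7 rose by 2.65 and 2.03. E2f8 was near the floor in the wild type, at 0, 0.318 and 0.560 CPM. Rbl2, a pocket protein of resting cells, fell by 0.38 without overlap. All 10 proliferation markers rose by at least 2-fold, with a median of 2.22, led by Bub1 (2.70), Ccnb1 (2.61) and Birc5 (2.49). An increase of that size was reached by 8.3% of all tested genes. The mean log2 CPM of the 10 markers was 2.15 to 3.08 in the knockout libraries and 0.23 to 1.07 in the wild type. The median rise of the members, 0.51, was smaller than that of these markers. In the wild type, however, Bub1, Ccnb1 and Birc5 had medians of only 0.369, 0.635 and 0.562 CPM. Their lowest counts were 2, 1 and 2, at or under the floor of 3, so the sizes of their rises are imprecise. Of 10 p53 targets, 7 rose and 1 fell: Cdkn1a, an inhibitor of cyclin-dependent kinases, rose by 1.76, Sesn2 by 1.12 and Eda2r by 1.22, and Trp53inp1 fell by 0.89. Eda2r varied widely, at 6.58, 16.8 and 44.7 CPM in the knockout, against 8.76, 9.23 and 12.0 in the wild type. Its lowest knockout library was below every wild type library. The Eda2r estimate was -0.35 with the endothelial covariate, not past the test.

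The number of members called was 29 with TMM or with DESeq2's size factors, and it changed when no scaling factor was used. TMM factors were 1.06 to 1.17 for the knockout and 0.826 to 1.07 for the wild type. With total counts and no scaling factor, the median log2 fold change of all genes moved to 0.32, 85.3% of all calls were higher in place of 53%, and 35 members were called, with 55.7% of all genes higher. Gins4, Rfc2, Pola1, Fanca, Fanci and Brca2 were then called at log2 fold changes of 0.33, 0.32, 0.41, 0.56, 0.44 and 0.55. Those of Gins4 and Rfc2 were close to the shift of all genes, and those of Pola1, Fanci, Brca2 and Fanca were above it. Gins2 and Rfc4, at -0.17 and -0.07 on TMM, had estimates of 0.14 and 0.22 and did not pass. The estimates of Rpa1, Tk2 and Rbl2, described above as falling, were -0.02, -0.06 and -0.08 on that scale and did not pass the test. Exons of 12 members overlap those of another listed gene. On the TMM scale, 7 of those 12 rose, against 22 of the other 25 and 25.6% of all tested genes.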

How the data were processed

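RNA from tail tendon fascicles was sequenced in 16 libraries, 8 knockout and 8 wild type, grouped by the genotype in the labels. The authors deposited 1 file a library with whole-number counts per Ensembl gene, per the file headers. The submitters' processing notes name kallisto, featureCounts and the build GRCm39. Their role, the annotation and the use of strand are not given in the sources used here. Symbols were found for 25614 of 25719 identifiers. Gene order, exon length and exon overlaps came from GENCODE M21 (GRCm38), so no gene coordinates are given other than those of the RefSeq promoters.

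The counts were tested in R 4.3.3 with edgeR 4.0.16 (TMM, filterByExpr, robust quasi-likelihood fit on genotype, two-sided, Benjamini-Hochberg over 14803 tested genes). Log2 fold changes are knockout against wild type, and intervals are 95%. The script was tested on simulated data. No 2 libraries were near-copies: the chi-square per degree of freedom of the most similar pair was 8.67 for the knockout and 6.56 for the wild type. Intervals come from the fit and include the spread between libraries, while the floor of 3 counts covers counting error only. The members and lists were chosen with earlier results of these data known. Full values are given for the members with the largest and smallest change in each role, those not past the test, Fancd2, Pcna and Vhl; Mcm2, Mcm6, Cdc6, Pole, Rrm1, Brca1, Ube2t and E2f1 were added after their values were seen. Of the other lists, the 3 largest changes and those against the list's direction are named, except items not reported here. Alternatives were other scalings, filters, DESeq2 1.42.0, limma 3.58.1 (voom), marker and Y-linked covariates, left-out libraries and a replicate block.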

Additional observations from a re-analysis of the deposited data

Results flagged for a closer look

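In 8 of 90 checks of a group of 8 libraries (each member and each ratio in each group), 1 library stood apart from the others by a gap wider than Dixon's 95% criterion, where chance gives about 1 in 20 (4.5 of 90). Wild type 3 had the lowest Mcm10 value of its group (log2 CPM -1.11, nearest -0.14), on 4 counts. The same library had the lowest log2 ratios of Rrm2 to Rrm1 (-2.31, nearest -1.77) and of Rrm2 to Rrm2b (-2.63, nearest -1.88), and the highest of Prim1 to Prim2 (-1.09, nearest -1.61). Knockout 5 had the highest knockout values of Rfc4 (log2 CPM 2.84, nearest 2.52) and Fen1 (3.47, nearest 2.94). Knockout 1 had the lowest knockout value of Prim1 (1.41, nearest 1.82), and knockout 8 the highest of Lig1 (3.97, nearest 3.63).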

How the results depend on the processing

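Of the values of named genes under the alternatives, 1857 kept their direction and their side of the threshold, 115 lost the call, 11 gained it, and 9 of genes that had passed turned in sign. A further 18 turned in sign for 6 members that had not passed (Gins2, Gins4, Rfc2, Rfc4, Pola1 and Fanci), 0 of them past the threshold. Members higher numbered 27 to 29 with each library left out in turn and 28 or 29 with DESeq2's size factors or test, TMM without the 20 most abundant genes, limma-voom, other filters, the Y-linked covariate and the replicate block, and 22 passed under every alternative other than the marker covariates. With the endothelial, erythroid and leukocyte covariates, members higher were 17, 6 and 13, other pathway genes higher 24, 15 and 19 and lower 0, 3 and 8, and all genes called 3894, 3011 and 4461, with 3 neighbours of Vhl called under the erythroid one. With the muscle covariate 2 other pathway genes were lower, and with total counts 64 were higher and 0 lower. Leaving out 1 library gave 3 (without knockout 8) to 8 (without knockout 5) other pathway genes lower, against 5. Without the 4 libraries of high Scx and Bop1, 1 member was lower, and the ratio differences were 0.45 for Rrm2 to Rrm2b, 0.49 for Brca1 to Bard1 and -0.36 for Pold1 to Pole. With 1 library left out, Rrm2 to Rrm2b ran from 0.30 to 0.48 and Rrm2 to Rrm1 from -0.26 to -0.12. Estimates of called genes that turned in sign were those of Faap20 (0.0663), Usp1 (0.0935) and Rad50 (0.067) with total counts, Faap20 (0.072) and Eda2r (-0.35) with the endothelial, Rfc1 (-0.0773) and Rrm2 (-0.27) with the erythroid, and Mcm7 (-0.0483) and Rrm2 (-0.15) with the leukocyte covariate; the cause was not tested. Same-numbered libraries of the groups did not pair: 3 of 8 pairs had a correlation over 0.1 (range -0.40 to 0.39), and 2 of 16 libraries correlated best with their own number. With the replicate block, 29 members and 7011 genes were called. For the ratios the block, added after seeing the data, left the Fancd2 to Fanci difference at 1.51 (adjusted exact p 0.0125). Among the members, Mcm10, Gins1 and Cdc6, with 373, 211 and 331 counts over all libraries, have the widest intervals.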
